A study of Homo sapiens with 3 samples.

Results

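The Ras, Raf and ERK core genes are HRAS, NRAS, SOS1, SOS2, ARAF, BRAF and MAPK3. These 7 genes were chosen by name, with earlier results of these data known. They were 7 of the 21610 genes that could be named on the arrays. Every probe whose RefSeq accession belonged to one of them was taken, which gave 10 probes. SOS1, NRAS and ARAF had 2 probes each, printed as single spots. SOS2, HRAS, BRAF and MAPK3 had 1 probe each, printed 10 times per array.

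The genes form the upper and lower steps of one relay. The exchange factors SOS1 and SOS2 are brought to activated growth factor receptors and load Ras proteins with GTP. GTP-bound HRAS and NRAS recruit Raf kinases such as ARAF and BRAF to the membrane, Raf kinases phosphorylate MEK, and MEK phosphorylates ERK1, the product of MAPK3. Most of the control of this relay acts on the proteins, through GTP loading and phosphorylation, and an array measures only transcripts. In colon epithelium the relay carries growth signals from EGF receptors, and HT29 cells are known to hold an activating mutation of BRAF.

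Total RNA of HT29, a human colon cancer cell line, was labelled with Cy3 and hybridized to 3 single-colour arrays on 1 slide. The substrates were tissue culture polystyrene (TCP, titled 2D in the records), a chitosan membrane (CS) and a chitosan membrane grafted with hyaluronan (CSHA). Chitosan is obtained by removing acetyl groups from the chitin of shells, and hyaluronan is a long sugar chain found between cells. All cells were of this 1 line, and no genetic change or drug was named in the records of these 3 samples. Each substrate was represented by 1 array, without replicates, so nothing here could be tested, and every statement compares these arrays and not the substrates in general. The only error that could be measured was the spread between spots of the same probe on the same array. That spread covers printing, hybridization and scanning. It does not cover differences between cultures, RNA extractions or labelling reactions.

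Each signal is the processed signal of the scanner software, in which background is already subtracted. A level is the log2 signal minus the 75th percentile of all non-control probes on the same array, and a difference is the level on one array minus that on another. The 75th percentile lay at a signal of 354 on TCP, 423 on CS and 337 on CSHA. Between 48.6% and 51.1% of probes were well above background, and no spot was saturated. All 9 markers of colon epithelium, EPCAM and keratins among them, were well above background on every array. Of 7 markers of fibroblasts and stroma, VIM and SPARC were just above the detection limit on TCP, and the others on TCP and all 7 on the membranes were not well above background. Of 4 leukocyte markers, 4 were well above background on TCP, 3 on CS and 4 on CSHA. Their summed signal was 1114, 1729 and 1934 on TCP, CS and CSHA, most of it from CD14 at 834, 1408 and 1633, while PTPRC, the defining leukocyte marker, read only 39.2, 52.5 and 38.6. CD68 read 119, 248 and 228, and CD3E went the other way, at 122, 20.6 and 34.4. The part of these transcripts in the values below was not tested.

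All 10 probes were well above background on all 3 arrays. The farthest of them from the detection limit was that of HRAS, whose signal was 112 times the lowest signal called well above background on TCP, 120 times on CS and 63.0 times on CSHA. The nearest to it was the dimmer SOS1 probe, at 2.82, 3.71 and 2.11 times. Of the 46 member spots on each array, 3 spots of MAPK3 were marked as outliers by the software, 1 on CS and 2 on CSHA, and were left out. In a bulk sample, fewer cells of a type and less RNA per cell cannot be told apart.

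**Figure D1:**
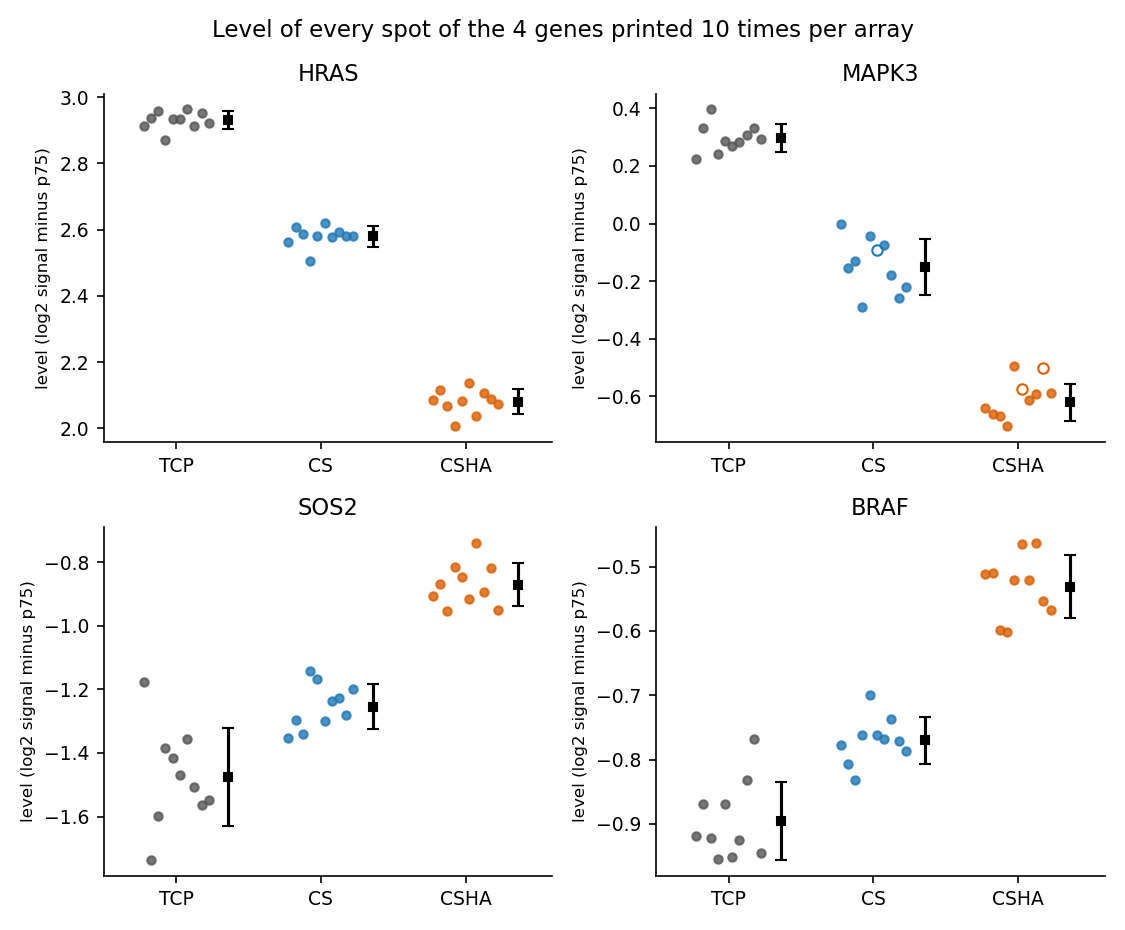
Level of every spot (log2 processed signal minus the 75th percentile of the array, p75) on TCP, CS and CSHA for the 4 genes printed 10 times per array, with squares for the mean, bars for the SD over spots and open circles for spots left out as outliers. HRAS and MAPK3 step down from TCP to CS to CSHA without overlap, and SOS2 and BRAF step up with overlap between TCP and CS only.

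SOS1 and SOS2 encode the exchange factors that open the relay. The SOS2 probe (NM_006939) had a median signal over its 10 spots of 126 on TCP, with a range from 106 to 157. On CS the median was 177, from 165 to 191, and on CSHA it was 183, from 174 to 202. After the shift, spots on TCP and CS overlapped, and the spots on CSHA lay above all spots of the other arrays. The level of SOS2 was higher by 0.22 ± 0.05 (SE over spots) on CS than on TCP and by 0.60 ± 0.05 on CSHA than on TCP, which is 1.52-fold. Between the membranes it was higher by 0.38 ± 0.03 on CSHA. In the comparison of CSHA with TCP, 89.3% of all compared genes had a lower difference than SOS2.

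SOS1 was dim, and its probes did not move together. The first probe (A_33_P3356406) read 92.2, 131 and 99.6 on TCP, CS and CSHA, and the second (A_23_P343808) read 67.9, 78.3 and 47.9. Both were designed on the same transcript record, NM_005633. On the first probe CS was 0.25 above TCP and CSHA 0.18 above TCP. Each of these differences is under 2 standard errors, taken as 0.14 and 0.16 from repeated probes of like brightness. The second probe differed by -0.05 ± 0.18 on CS and by -0.44 ± 0.22 on CSHA. The probes had opposite signs on both membranes against TCP.

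HRAS and NRAS encode the small GTPases that SOS proteins activate. The HRAS probe (NM_005343) had a median signal of 2706 on TCP, from 2590 to 2762 over its 10 spots. The median was 2528 on CS, from 2402 to 2602, and 1431 on CSHA, from 1356 to 1485. The lowest levels were those of CSHA, and after the shift no spot of one array overlapped with those of another. The level of HRAS was 0.35 ± 0.01 lower on CS than on TCP and 0.85 ± 0.01 lower on CSHA than on TCP. These are 1.28-fold and 1.80-fold lower levels. CSHA was 0.50 below CS.

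For HRAS, 5.63% of all compared genes had a lower difference between CSHA and TCP. The gene was lower on both membranes under all 10 settings of the processing, from -0.40 to -0.29 for CS and from -0.91 to -0.44 for CSHA. HRAS had a single probe, well above background on all arrays. The filters on dim probes and the mean over probes therefore could not alter its value.

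NRAS was read by 2 probes to the same record, NM_002524, which moved in the same direction in every comparison but by unequal amounts. The first (A_23_P63190) had signals of 738, 991 and 588 on TCP, CS and CSHA. The second (A_33_P3317825) had signals of 341, 494 and 181 in the same order. On both probes CS was the highest array and CSHA the lowest. Against TCP, the level on CS was higher by 0.17 ± 0.07 with the first probe and by 0.28 ± 0.09 with the second. The level on CSHA differed from TCP by -0.26 ± 0.08 and -0.85 ± 0.11. Between the membranes the differences were -0.43 ± 0.07 and -1.13 ± 0.10, and the latter is a 2.18-fold lower level on CSHA. For the first probe the direction on CSHA against TCP depended on the scaling, since with spike-in scaling it was 0.16 higher there. The second probe was not recomputed by itself under the other settings.

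ARAF and BRAF encode kinases that bind GTP-loaded Ras and phosphorylate MEK. ARAF had the largest difference among the members, but on one of its probes only. The probe A_23_P73511, to the record NM_001654, had signals of 823, 824 and 263 on TCP, CS and CSHA. The probe A_33_P3362353, to the record NM_001256197, had signals of 432, 517 and 424. On the first probe the CSHA array was far below the others, and the second was at about the same level on all arrays after the shift, 0.29, 0.29 and 0.33.

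On the first ARAF probe the level was 1.58 ± 0.09 lower on CSHA than on TCP, a 2.98-fold lower level, and 1.32 ± 0.09 lower on CSHA than on CS, or 2.50-fold. The difference of CS from TCP was -0.25 ± 0.07. On the second probe the same 3 differences were 0.04 ± 0.09, 0.04 ± 0.08 and 0.00 ± 0.09, all within the spot spread. For the first probe, 0.889% of all compared genes had a lower difference between CSHA and TCP. The mean over both probes put ARAF at -0.77 on CSHA against TCP, which is under 2-fold. The accessions name different transcript records of ARAF, and whether the probes read different transcripts was not tested.

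BRAF (NM_004333) had a median signal of 187 on TCP, from 183 to 208 over 10 spots. The median was 248 on CS, from 238 to 260, and 235 on CSHA, from 222 to 245. In unshifted signal CS was above CSHA, and after the shift CSHA was above CS with no overlap of spots. The level of BRAF was 0.13 ± 0.02 higher on CS than on TCP, where spots overlapped, and 0.36 ± 0.02 higher on CSHA than on TCP, or 1.29-fold. Between the membranes CSHA was 0.24 ± 0.02 higher. Genes with a lower difference than BRAF made up 74.9% of those compared between CSHA and TCP, so its rank was nearer to the middle of all genes than that of SOS2.

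MAPK3 encodes ERK1, the kinase at the end of the relay, which MEK activates. The probe (NM_002746) had a median signal of 433 on TCP, from 414 to 466 over 10 spots. It was 380 on CS, from 346 to 422 over 9 spots, and 218 on CSHA, from 207 to 239 over 8 spots. The order was TCP, CS and then CSHA, with no overlap after the shift. The level was 0.45 ± 0.04 lower on CS than on TCP, or 1.36-fold, and 0.92 ± 0.03 lower on CSHA than on TCP, or 1.89-fold. CSHA was 0.47 ± 0.04 below CS. MAPK3 was lower than on TCP under all 10 settings, from -0.50 to -0.37 for CS and from -0.98 to -0.50 for CSHA. As for HRAS, the filters on dim probes and the mean over probes could not alter the value of MAPK3. On CSHA 4.80% of all genes had a lower difference.

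**Figure D2:**
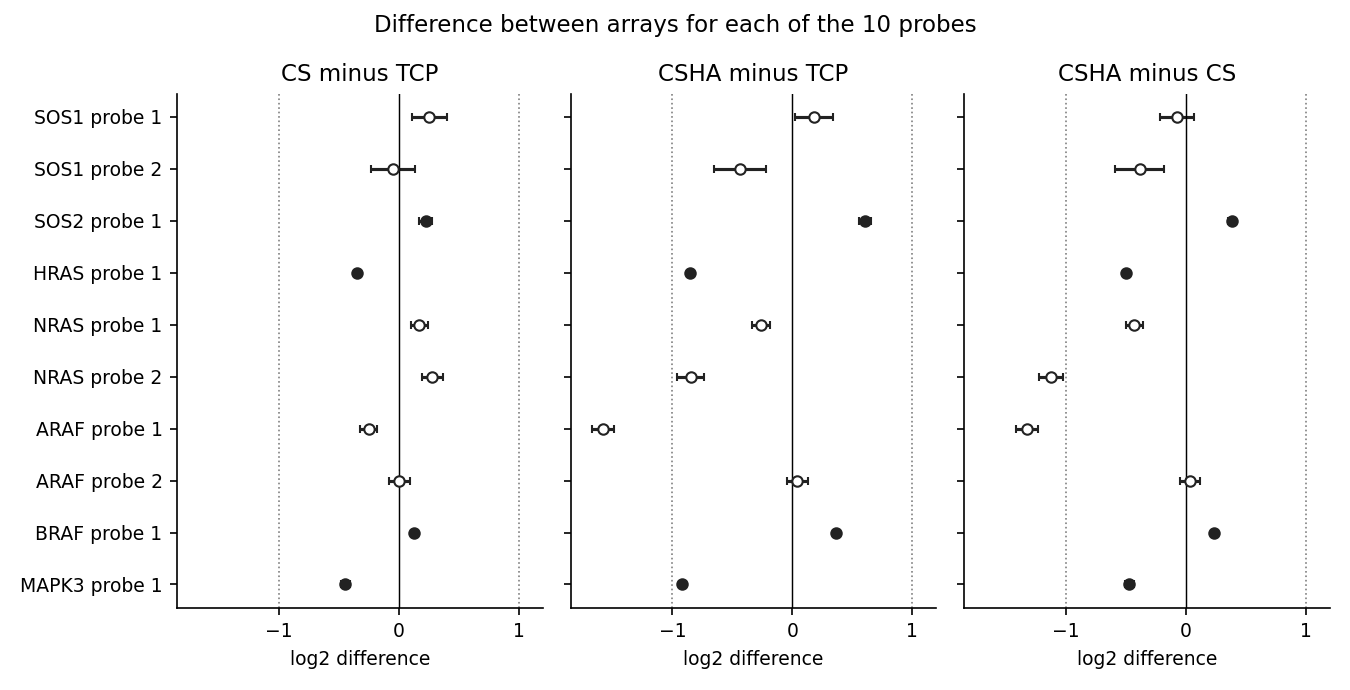
Difference in level (log2) between arrays for each of the 10 probes in 3 panels, with bars of 1 standard error from the spread between spots, filled circles for probes printed 10 times, open circles for single spots (spread taken from probes of like brightness) and dotted lines at 2-fold. HRAS, MAPK3 and the first ARAF probe lie below 0 in all 3 panels, SOS2 and BRAF lie above 0, and only the first ARAF and the second NRAS probe pass 2-fold.

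Counted over the 10 probes, 6 were higher and 4 lower on CS than on TCP. None reached 2-fold. On CSHA against TCP 4 probes were higher and 6 lower, and 1 reached 2-fold. Between CSHA and CS 3 were higher and 7 lower, and 2 reached 2-fold. The comparisons of CS and of CSHA with TCP share the TCP array and are not independent of each other.

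With the brightest probe standing for each gene, the CS array was above TCP for 4 members and below it for 3, and 0 of 7 differed by at least 2-fold, where 3.30% of all compared genes did. The median over members was 0.13, beside 0.04 over all 14462 genes. On CSHA against TCP 3 members were higher and 4 lower, with a median of -0.26 beside 0.12 over 14623 genes. ARAF was the 1 member past 2-fold, where 7.02% of genes were. Between CSHA and CS, 2 members were higher and 5 lower, the median was -0.43 beside 0.07 over 14596 genes, and ARAF was again the 1 member past 2-fold, against 4.43% of genes.

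These medians depended on how the arrays were scaled. With each array scaled to its spike-in controls, the median of all genes moved to 0.10 for CS and 0.54 for CSHA against TCP, and the genes past 2-fold between CSHA and TCP went from 442 above and 584 below to 1679 above and 191 below. Under that scaling the median of the members on CSHA was 0.16, still below that of all genes. HRAS, MAPK3 and the first ARAF probe were lower than on TCP and SOS2 and BRAF higher under every scaling run, on both membranes. The second ARAF probe did not share this direction, at 0.003 on CS and 0.04 on CSHA against TCP, within the spot spread. That probe was not recomputed by itself under the other scalings.

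**Figure D3:**
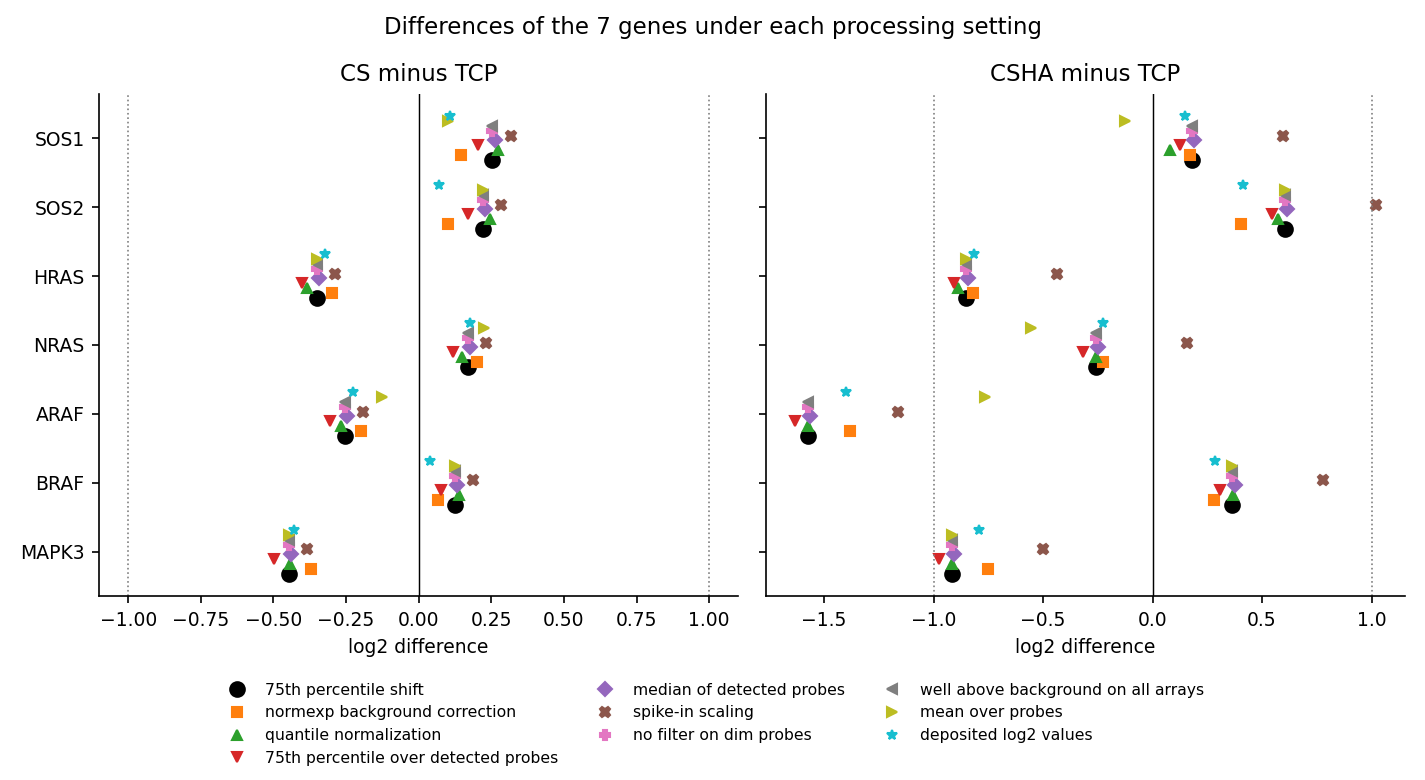
Difference in level (log2) of each member from TCP, for CS (left) and CSHA (right), with 1 symbol for each of the 10 settings of the processing and dotted lines at 2-fold. The symbols of HRAS, ARAF and MAPK3 stay below 0 and those of SOS2 and BRAF above 0 in both panels, while SOS1 and NRAS have symbols on both sides of 0 for CSHA. The second ARAF probe enters only through the mean over probes.

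The disagreement between the ARAF probes was set beside that of all genes with 2 measured probes. In the comparison of CSHA with TCP the ARAF probes differed by 1.62 on the log2 scale, and 1.65% of 3511 such genes had a gap as large. The median gap was 0.32, and probes disagreed by at least 2-fold in 10.0% of genes. Between CSHA and CS the ARAF gap was 1.36, as large in 2.21% of 3613 genes, where 6.01% disagreed by at least 2-fold. Between CS and TCP the gap was 0.26, as large in 33.4% of 3558 genes, where 1.41% disagreed by at least 2-fold. The gaps of NRAS, at 0.11, 0.59 and 0.70 for CS against TCP, CSHA against TCP and CSHA against CS, and those of SOS1, at 0.30, 0.62 and 0.31, were as large in 14.6% or more of genes. Opposite signs, as for SOS1 and ARAF on both membranes against TCP, were seen in 34.5% of genes for CS and 39.6% for CSHA.

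**Figure D4:**
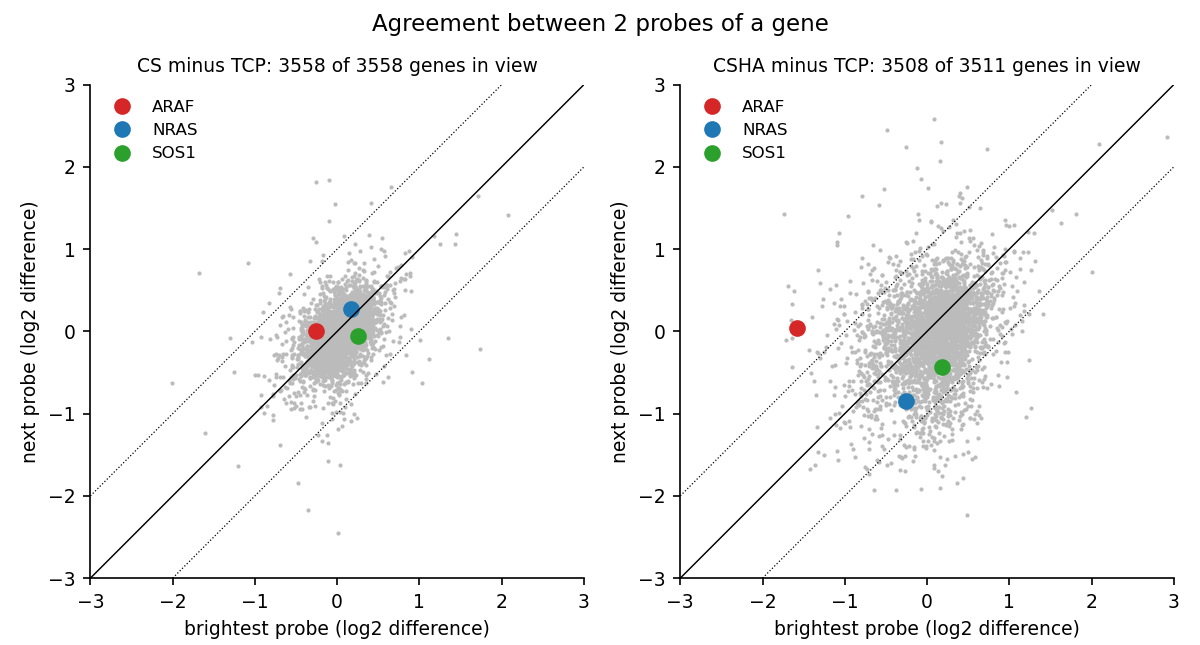
Difference in level (log2) by the brightest probe (x axis) and by the next probe (y axis) of each gene with 2 measured probes, for CS (left) and CSHA (right) against TCP, with grey points for all genes in view, coloured points for SOS1, NRAS and ARAF, a line of equal differences and dotted lines at a 2-fold gap. ARAF lies outside the dotted lines for CSHA, at a gap of 1.62, and inside them for CS, at a gap of 0.26.

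The genes nearest to ARAF in their pair of differences from TCP were NUBP2, ARF1 and CEP85, out of 13484 genes measured on all arrays. NUBP2 differed by -0.25 on CS and -1.57 on CSHA, ARF1 by -0.31 and -1.60, and CEP85 by -0.23 and -1.64. In all, 11 genes lay within a distance of 0.1 of ARAF on this plane. This likeness rests on 3 arrays and on the ARAF probe that differed.

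The other genes of the relay were taken from a list of 62 genes in 9 groups by role, written with earlier results of these data known. A value could be had for 58 of them on CS against TCP, of which 33 were higher and 25 lower, with a median of 0.03. On CSHA 59 had a value, 33 higher and 26 lower, with a median of 0.10. The share of all compared genes above their TCP level was 56.7% for CS and 61.6% for CSHA, and the counts of each group below are to be read against these shares. RASGRF1 and EPHA4 were not well above background on any array. RASGRP1 was measured on CS only, too dim for a bound, and DUSP7 was measured on CSHA only. No gene of the list reached 2-fold on CS, and 1 did on CSHA, the Ras-related GTPase MRAS, where 3.30% and 7.02% of all genes did.

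MRAS, whose product forms a phosphatase complex with SHOC2 that acts on Raf, had signals of 156, 120 and 69.9 on TCP, CS and CSHA. Its level was 0.63 lower on CS and 1.09 lower on CSHA than on TCP. It was lower on both membranes under all 10 settings, but on CSHA it was not past 2-fold under all of them. With the normexp background correction it stood at -0.54 on CSHA. The deposited values gave 0 listed genes past 2-fold there. With spike-in scaling the 1 listed gene past 2-fold on CSHA was ELK3, at 1.16, and not MRAS. The filters on dim probes and the mean over probes could not alter the value of this gene, which had a single probe.

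Among adaptors and exchange factors, PLCG1, a phospholipase recruited to growth factor receptors, had the lowest difference from TCP, -0.53 for CS and -0.66 for CSHA. GAB1, a docking protein, had the highest, at 0.17 and 0.24, within the spot spread of a probe this dim. GRB2, the adaptor that carries SOS to receptors, was 0.49 lower on CSHA than on TCP and 0.07 lower on CS. The medians of the group, 0.04 on CS and 0.09 on CSHA, were near those of all genes.

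The GTPase-activating proteins, which turn Ras off, were higher for 4 of 6 genes on each membrane, with medians of 0.03 for CS and 0.24 for CSHA. RASAL2 was highest on CS, at 0.56, and RASA1 lowest, at -0.17. The second RASAL2 probe stood at 0.20 on CS and 0.55 on CSHA, where the first stood at 0.22 on CSHA. On CSHA the highest was NF1, neurofibromin, at 0.46, and the lowest was RASAL1, at -0.16. NF1 had 5 probes, and on CSHA against TCP 3 of them were higher and 2 lower. On CS its brightest probe stood at 0.08 and all its other probes were below 0. With the mean over probes, 3 of the 6 genes of this group were higher on CS.

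Of the genes for membrane targeting and turnover of Ras, 6 of 7 were higher on CS and 3 of 7 on CSHA. GOLGA7, a part of the palmitoyltransferase that acts on HRAS and NRAS, was highest, at 0.43 and 0.44, though its dimmest probe stood at -0.34 on CSHA. RCE1, the protease that trims farnesylated Ras proteins, was lowest, at -0.29 and -0.69. The group's median on CSHA, -0.02, turned to 0.39 with spike-in scaling, where the median of all genes was 0.54.

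Among Raf partners and scaffolds, 8 of 10 were higher on CSHA, and the scaffold IQGAP1 was highest, at 0.41. On CS 7 of 10 were higher, and PEBP1, an inhibitor of Raf, was highest at 0.27. The scaffold KSR1 was lowest on CS and was not well above background on either membrane, so its difference there is a bound. This bound was -0.70 on CS and -0.40 on CSHA, with spot spreads of 0.45 and 0.48 on a dim probe. With the normexp background correction the values were -0.31 and -0.01, so the bound is not a firm limit.

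The MEK genes lie just above MAPK3 in the relay. MAP2K1, which encodes MEK1, had signals of 5530, 6481 and 3673 on TCP, CS and CSHA. Its level differed by -0.03 on CS and -0.52 on CSHA. MAP2K2, which encodes MEK2, differed by 0.15 and -0.28, and the latter became 0.14 with spike-in scaling.

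The feedback inhibitors of the relay had 3 of 8 genes higher on CS and 6 of 9 on CSHA. SPRY2, a Sprouty protein that restrains receptor signals to Ras, was highest, at 0.15 on CS and 0.50 on CSHA. DUSP4, a nuclear phosphatase of ERK, was lowest, at -0.63 and -0.52. DUSP6, a cytoplasmic phosphatase of ERK whose transcript follows ERK activity in many cells, differed by 0.06 and 0.07. DUSP6 falls outside the rule for named genes and was chosen after its values were seen. Among ERK substrates, ELK4 was highest on CS, at 0.36, and ELK3 on CSHA, at 0.75 on a dim probe whose spot spread was 0.30. The second ELK4 probe stood at -0.03 on CS and -0.19 on CSHA. ELK1 was lowest on both, at -0.21 and -0.39, while its second probe stood at 0.38 and 0.67.

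The group of transcripts that are known to rise with ERK activity had 0 of 7 genes higher on CS and 1 of 7 on CSHA, with medians of -0.30 and -0.45 beside 0.04 and 0.12 over all genes. EPHA2, a receptor tyrosine kinase, was lowest on CS, at -0.65, and stood at -0.64 on CSHA. CCND1, cyclin D1, was lowest on CSHA, at -0.89, and stood at -0.43 on CS. ETV5, a transcription factor of the ETS family, was highest, at -0.14 and 0.12. ETV4 of the same family differed by -0.23 and -0.87, and PHLDA1 by -0.44 and -0.45. FOSL1, an AP-1 subunit, differed by -0.20 and -0.44, and IER3 by -0.30 and -0.20. With spike-in scaling the median on CSHA was -0.03, with 2 of 7 higher, and on CS it was -0.24, with 0 of 7 higher. The medians of all genes under that scaling were 0.54 on CSHA and 0.10 on CS, so the group stayed below them. DUSP6, whose transcript follows ERK activity in many cells, was placed with the feedback inhibitors and is not among these 7 genes. It differed by 0.06 on CS and 0.07 on CSHA. The feedback inhibitors as a group had medians of -0.12 and 0.07, so the count depends on how genes were assigned to groups. The values of ETV4, PHLDA1, FOSL1 and IER3 were added after they were seen, since the rule for named genes selects only the highest and lowest of a group.

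**Figure D5:**
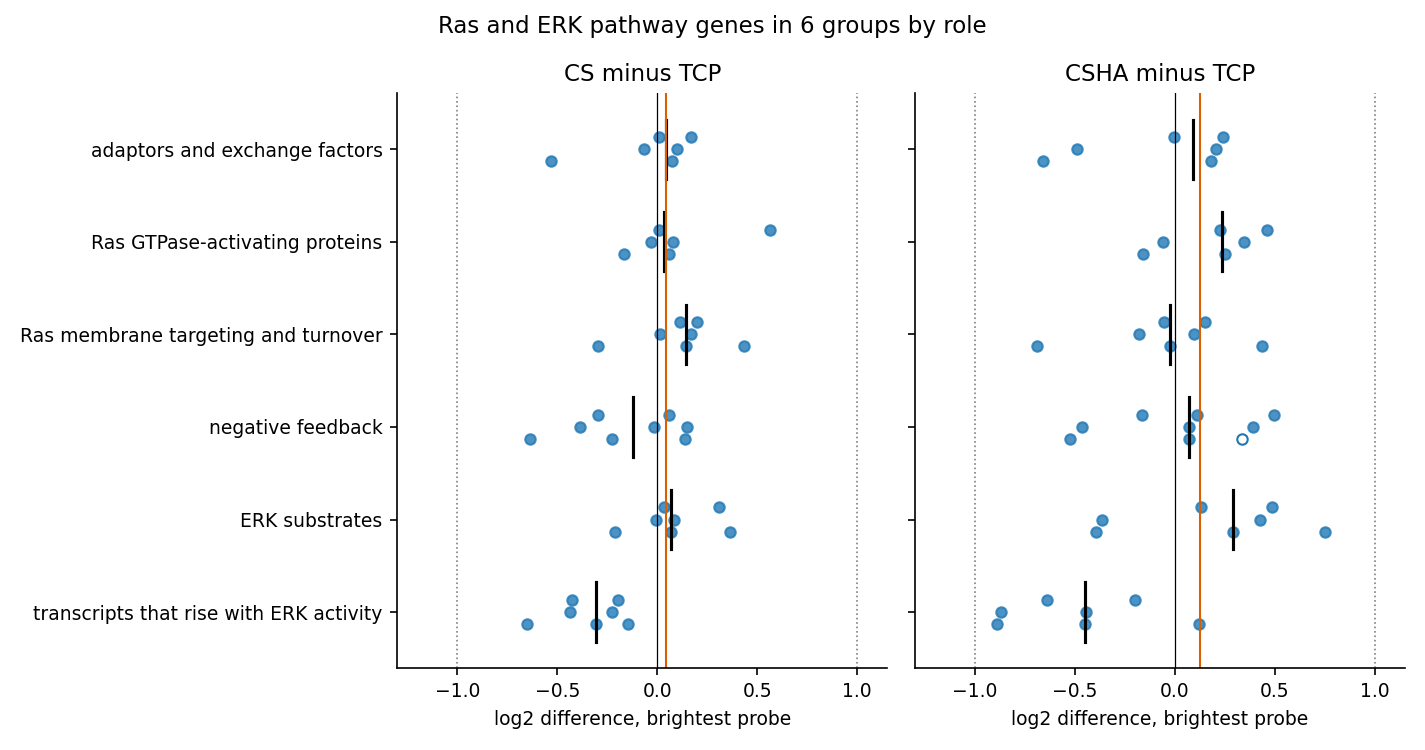
Difference in level (log2, brightest probe) from TCP of listed genes on CS (left) and CSHA (right), for 6 of the groups by role, with filled circles for genes measured on both arrays, open circles for bounds, black ticks for the median of each group, an orange line at the median of all genes and dotted lines at 2-fold. The transcripts that rise with ERK activity have the lowest median of the groups drawn in both panels, at -0.30 on CS and -0.45 on CSHA.

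Between the membranes, 31 of 58 genes of the list were higher on CSHA than on CS and 27 lower, with a median of 0.01 and none past 2-fold, where 58.5% of all compared genes were higher and 4.43% were past 2-fold. The lowest was ETV4, at -0.64, and the highest was DUSP7, at 0.78, which is a bound since the probe was not well above background on CS. MAP2K1 stood at -0.49. Of the feedback inhibitors 8 of 9 were higher on CSHA, with SPRY4 as the exception at -0.08. Their median was 0.11, beside 0.07 over all genes, and 7 of 9 were higher with normexp or quantile normalization.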

How the data were processed

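RNA of HT29 cells grown on TCP, CS or CSHA was measured on 1 single-colour array each, on 1 slide. Spot intensities with quality flags were deposited by the authors, as given by Feature Extraction 10.7.3.1 per the file headers, while the methods name another version. They also deposited a table of log2 values, found here to be the median spot signal, shifted per array and centred per spot. The submitters' processing notes name limma. The sample records and the methods name different extraction kits.

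Processed signals under 1 were set to 1. After log2 the 75th percentile of the array was subtracted, and a probe took the mean of its spots, leaving out controls and outliers. The methods apply that floor and shift to the raw signal. Accessions were matched to symbols through RefSeq (GRCh38.p14, names only): 29989 of 50568 probes matched, 20579 did not, and 31 further probes had no usable spot on an array. The brightest probe stood for a gene in counts. Comparisons needed 1 array with the gene well above background. Where the other array had not measured the gene, a bound was taken from the lowest signal of that class on that array. The gene's own signal was used instead where it was higher. For single spots the SD came from the 100 repeated probes nearest in brightness. Genes were counted at 2-fold, with no test. Named genes were the members, listed genes past 2-fold, the highest and lowest of each role group and the 3 genes nearest to the member with the largest difference. Some genes of that rule are not reported here. The members and lists were chosen with earlier results of these data known.

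The alternatives were normexp (offset 50, on the median signal, since the mean is not a column used here), quantile normalization, percentile or median over detected probes, spike-in scaling, no filter or a stricter one on dim probes, the mean over probes, the deposited values and thresholds of 1.5-fold and 3-fold. The number of arrays limits the precision. The calculation was tested on simulated data with Python 3.11.15, numpy 2.4.6, pandas 2.3.3, R 4.3.3 and limma 3.58.1.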

Additional observations from a re-analysis of the deposited data

How the results depend on the processing

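With 1 array per substrate, no replicate could be left out and no spread between cultures is known. No paired analysis was possible because each group held 1 array and the labels give no replicate numbers. Of 189 values of single members recomputed under the alternatives, 151 moved by less than the spread between spots, 36 moved by more and 2 that had exceeded that spread changed sign. Spike-in scaling accounted for 14 of the moves, and the 2 were SOS1 and NRAS on CSHA against TCP, SOS1 at -0.13 with the mean over probes and NRAS at 0.16 with spike-in scaling. Between CSHA and CS, SOS1 stood at -0.07, within the spread, and was higher under 3 of 10 settings. Some of the 151 values could not have moved. All member probes were well above background on all arrays, so neither filter on dim probes could change any of its 21 values. The mean over probes could not change the genes with a single probe.

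With spike-in scaling the median of the members on CSHA against TCP turned from -0.26 to 0.16, the number past 2-fold rose from 1 to 2, the median of the listed genes was 0.52, and between CSHA and CS the medians were -0.077 for members and 0.36 for listed genes, with 0 members and 2 listed genes past 2-fold. That scaling rests on 7 control probes. Under it the medians of all genes were 0.54 for CSHA against TCP and 0.42 for CSHA against CS. With the mean over probes 0 members passed 2-fold in either comparison with CSHA, and the median on CSHA against TCP was -0.55, which is the value of NRAS averaged over its probes. The deposited values gave a median of 0.039 for members on CS against TCP and 0 listed genes past 2-fold on CSHA against TCP, and normexp also gave 0. With no filter on dim probes, 1 listed gene passed 2-fold on CS against TCP, 3 on CSHA against TCP and 1 on CSHA against CS. At 1.5-fold the listed genes numbered 4, 7 and 3 in the same order and the members on CSHA against TCP 4. At 3-fold there were 0 members and 0 listed genes in the comparisons with CSHA. The cause of the other moves was not tested.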
